A study of Mus musculus with 9 samples.

Results

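The mitochondrial genome of the mouse carries 37 genes, and all 37 were present among the 55302 gene symbols of the deposited tables. They were chosen by their symbol, which starts with mt-, and by no measured value. They comprise 13 protein genes, 2 ribosomal RNA (rRNA) genes and 22 transfer RNA (tRNA) genes. By their annotated strand in GENCODE M21 (mm10), 9 are light-strand genes, annotated on the minus strand (mt-Nd6 and the tRNA genes mt-Tq, mt-Ta, mt-Tn, mt-Tc, mt-Ty, mt-Ts1, mt-Te and mt-Tp). The other 28 are heavy-strand genes, annotated on the plus strand. They were measured in 9 bulk RNA-seq libraries of fibroblasts sorted from mouse lungs at an early metastatic stage, 4 from mice given vehicle (PBS, called saline in another label) and 5 from mice given doxorubicin (DOX). Per the study's methods, female mice of 8 weeks received breast cancer cells in a mammary fat pad, the tumor was resected, and 2 doses followed, of 5 mg/kg in DOX. Lungs were collected 24 h later. The methods name BALB/c or C57BL/6 hosts depending on the tumor cells, and neither the strain nor the tumor line of these 9 libraries is given in the sources used here. No transgene or deletion is named for either group. The labels describe the sorted cells as CD45-, EpCAM- and PDGFRa+, and the methods add CD31-.

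Mitochondrial DNA is copied into long RNAs from both strands. The tRNAs lie between most of the other genes, and cutting them out releases the messenger RNAs and rRNAs. The 13 proteins are subunits of respiratory complexes I, III, IV and V, whose other subunits, like all of complex II, are encoded in the nucleus. mt-Nd6, a complex I subunit, is the only protein gene of the light strand. Mitochondrial messenger RNAs other than that of mt-Nd6 carry poly(A) tails in mammals, and the mt-Nd5 messenger is known to run on past its coding part, opposite to mt-Nd6. Doxorubicin intercalates into DNA and accumulates in mitochondria, which is studied above all in the heart.

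Libraries were made by MARS-seq, which primes on poly(A), keeps the strand and sequences the 3′ end of transcripts. Counts of such tags do not scale with transcript length, and reads per kilobase (kb) are given below only to set genes of unequal length side by side. Whether the authors counted reads by strand, and in which orientation, is not given in the sources used here. Light-strand and heavy-strand reads below are therefore reads counted on genes annotated on that strand. The strand of the RNA behind them was not tested. With the orientation reversed, the reads of a gene would come from RNA of the opposite strand. Without strand, reads of a light-strand gene and of heavy-strand RNA across the same bases cannot be told apart. Annotated overlaps between the strands were small, 14 bases between mt-Nd6 and mt-Nd5, 3 between mt-Tq and mt-Ti and 3 between mt-Ts1 and mt-Co1.

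The light-strand protein gene is rich in T. mt-Nd6 (ENSMUSG00000064368.1, chrM:13552-14070, minus strand, 519 bases) held 43.7% T and 22.2% A on its sense strand, where the other 12 protein genes held 27.4 to 32.8% T and 29.5 to 40.7% A. Runs of 6 or more T occurred 4 times in the 37 genes, 3 times in mt-Nd6 and once in mt-Cytb. On the opposite strand these runs read as runs of A. The stretches that hold them are shown with the runs in capitals, from chrM:13746-13927 on the minus strand and chrM:14387-14442 on the plus strand (GENCODE M21 transcripts, mm10).
mt-Nd6: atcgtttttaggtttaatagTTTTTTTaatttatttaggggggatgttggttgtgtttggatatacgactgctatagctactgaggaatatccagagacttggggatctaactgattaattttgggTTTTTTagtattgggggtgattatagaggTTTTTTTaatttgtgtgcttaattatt
mt-Cytb: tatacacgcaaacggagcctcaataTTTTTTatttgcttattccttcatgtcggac

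Runs of 6 or more A on the sense strand occurred 15 times, in 8 heavy-strand genes, and in no light-strand gene. The longest, of 8 bases, are shown in capitals, in mt-Nd2 at chrM:4027-4084 and in the whole of mt-Tr (arginine tRNA) at chrM:9808-9875, both on the plus strand.
mt-Nd2: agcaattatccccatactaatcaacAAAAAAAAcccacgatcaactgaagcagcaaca
mt-Tr: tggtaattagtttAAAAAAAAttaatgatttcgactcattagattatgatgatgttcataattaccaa

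As a background, TTTTTT occurred on the sense strand in 18.2% and AAAAAA in 17.2% of the central 519 bases of the longest transcript of 21433 nuclear protein genes. Of the 37 mt- genes, 2 held such a run of T and 8 such a run of A. The mt- genes were searched whole, at 59 to 1824 bases, so these counts and the background shares are not like for like. The letters were searched on the sense strand only, and overlapping runs count once. The 4 light-strand tRNA genes with 10 or more reads are shown whole with the anticodon in capitals. mt-Te (glutamic acid) lies at chrM:14071-14139, directly upstream of mt-Nd6 on the same strand with no base between them. mt-Tp (proline) lies at chrM:15356-15422, mt-Tq (glutamine) at chrM:3772-3842 and mt-Tc (cysteine) at chrM:5192-5257, all on the minus strand.
mt-Te: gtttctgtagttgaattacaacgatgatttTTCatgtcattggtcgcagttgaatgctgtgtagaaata
mt-Tp: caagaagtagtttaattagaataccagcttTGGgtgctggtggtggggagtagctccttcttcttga
mt-Tq: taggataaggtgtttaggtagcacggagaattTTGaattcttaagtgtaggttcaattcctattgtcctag
mt-Tc: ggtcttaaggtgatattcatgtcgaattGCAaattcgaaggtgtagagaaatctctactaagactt

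The 9 libraries held 432322 to 1285816 reads, the fewest in DOX replicate 2 and the most in DOX replicate 5. In DOX replicate 2 a nuclear rRNA gene took 35.3% of the reads, against 5.74 to 16.8% elsewhere. PBS replicate 4 stood apart from the other 8 libraries in markers of other cell types, with a summed normalized read count of 1186 over 14 granulocyte genes (23.97 to 91.9 elsewhere), 483 over 13 epithelial genes (15.8 to 179), 325 over 12 pan-immune genes (6.50 to 41.0) and 81.8 over 7 red blood cell genes (0 to 7.17). The part of these cells in the mt- values was not tested. Fibroblast markers summed to 1569 in that library and to 2403 to 3533 elsewhere, and Pdgfra, the gene of the sorting marker, was low throughout, between 0.81 and 11.99. In bulk samples fewer cells of a type and less RNA per cell cannot be told apart. The orientation in which reads were counted is not given either, and its part in the low Pdgfra values was not tested.

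Reads of mitochondrially encoded genes were few, and most of them were counted on light-strand genes. The 37 genes held 7212 of 6303233 reads, or 0.114%. The 9 light-strand genes, 1068 bases in all, held 5455 of these reads (75.6%), and the 28 heavy-strand genes, 14373 bases in all, held 1757 (24.4%). This is 5108 reads per kb of light-strand genes and 122 per kb of heavy-strand genes. mt-Nd6 alone held 5108 reads, or 9842 per kb, and ranked 163rd of all symbols by mean normalized read count. The 2 rRNA genes held 1100 reads (15.3%), the 12 heavy-strand protein genes 634 (8.79%), the 8 light-strand tRNA genes 347 (4.81%) and the 14 heavy-strand tRNA genes 23 (0.319%).

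**Figure D1:**
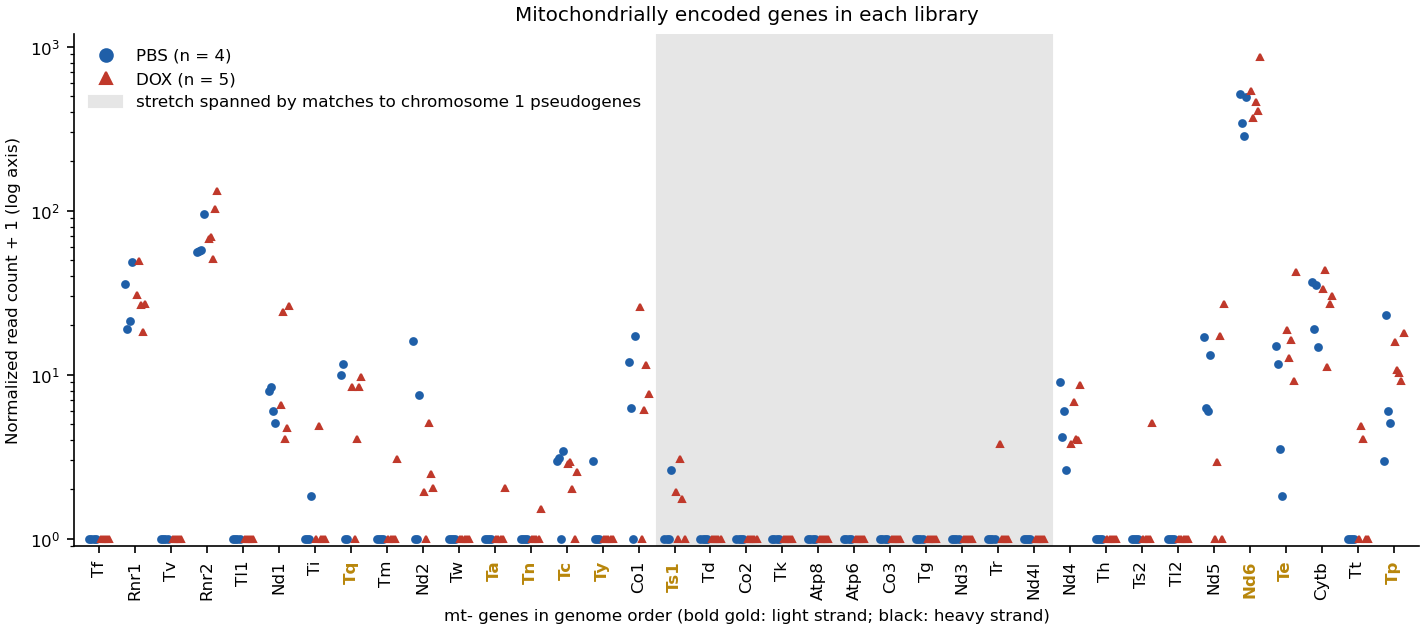
Normalized read count plus 1 (log axis) of each of the 37 mt- genes in genome order, with 1 point per library (4 PBS as blue circles, 5 DOX as red triangles) and light-strand names in bold gold. mt-Nd6 lies above every other gene in all 9 libraries, and 9 of the 11 genes in the shaded stretch, spanned by matches to pseudogenes on chromosome 1, are listed at 0.

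mt-Nd6 made up most of the mt- reads in every library. In PBS its share was 70.7, 68.5, 68.1 and 70.6% in replicates 1 to 4, a mean of 69.5% ± 1.37 (SD, n = 4). In DOX it was 72.0, 62.5, 75.2, 68.3 and 72.3% in replicates 1 to 5, a mean of 70.1% ± 4.87 (SD, n = 5). DOX replicate 2, with 304 mt- reads, was the lowest, with an exact 95% binomial interval of 56.8 to 68.0%, and DOX replicate 3 the highest, with 71.5 to 78.6%. These intervals cover the counting of reads only. The DOX values lay on both sides of the PBS range.

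**Figure D2:**
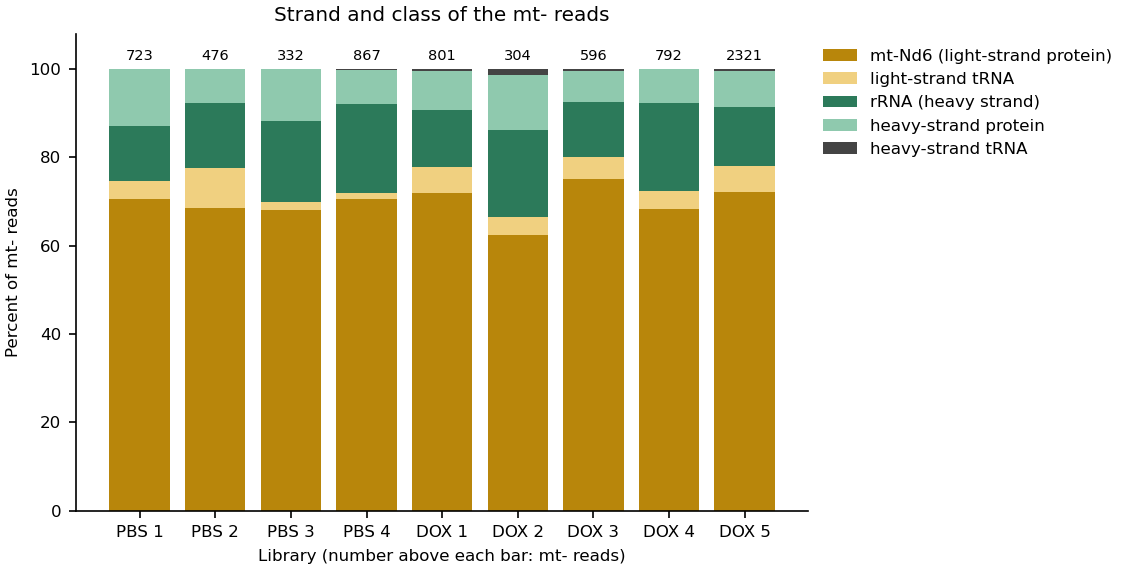
Percent of the mt- reads of each library (y axis) that fell on mt-Nd6, light-strand tRNA, rRNA, heavy-strand protein and heavy-strand tRNA genes, with the number of mt- reads above each bar. mt-Nd6 takes 62.5 to 75.2% in every library, and heavy-strand tRNA genes at most 1.32%.

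Not all members could be tested. Of the 37 genes, 7 had a normalized read count of 10 or more in at least 4 libraries and entered the test across 2604 genes. They were mt-Nd6 and mt-Te of the light strand and mt-Rnr1, mt-Rnr2, mt-Co1, mt-Nd5 and mt-Cytb of the heavy strand. Another 15 had reads but stayed below that limit, 7 of the light and 8 of the heavy strand. The remaining 15 were listed at 0 in all 9 libraries, which allows up to 3 reads, or 4.76e-05% of all reads. All 15 were heavy-strand genes. They were 6 protein genes, mt-Co2 and mt-Co3 (complex IV), mt-Atp6 and mt-Atp8 (complex V) and mt-Nd3 and mt-Nd4l (complex I), and 9 tRNA genes, mt-Tf, mt-Tv, mt-Tl1, mt-Tw, mt-Td, mt-Tk, mt-Tg, mt-Th and mt-Tl2. No light-strand gene was at 0 in all libraries.

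The protein genes listed at 0 were compared with all other annotated transcripts. For 5 of these 6 genes, at least 95% of the bases lay in a nuclear transcript at 99% identity or more. These were mt-Co2 (99.6% of its bases, in Gm28661), mt-Atp6 (99.6%, in Gm10925), mt-Co3 (99.9%, in Gm28437), mt-Nd3 (99.1%, in Gm28438) and mt-Nd4l (98.99%, in Gm10222). The exception was mt-Atp8, of whose 204 bases 43 (21.1%) lay in Gm10925. Of the 7 protein genes with reads, none reached 95%. mt-Nd4 (45 reads) reached 63.6% in Gm28439, mt-Co1 (95 reads) 31.3% in Gm29216, and the other 5, mt-Nd6 among them, held no bases at that identity. The 24 rRNA and tRNA genes held none at that identity either. The contrast depends on the limit of 99%. At 90% identity or more, nuclear transcripts covered 100% of mt-Nd6 and of mt-Co1 and 99.8% of mt-Cytb. They covered 63.6% of mt-Nd4, 60.2% of mt-Nd5, 49.1% of mt-Nd2 and 0% of mt-Nd1.

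These 7 nuclear pseudogenes lie side by side on the minus strand of chromosome 1, within 4663 bases at chr1:24611535-24616197 (mm10), and their matches span chrM:6390-11042. Of the 11 mt- genes wholly inside that mitochondrial stretch, 9 were listed at 0, and the other two, mt-Ts1 and mt-Tr, had 9 reads together. The 5 tRNA genes of the stretch have no annotated copy there, and the sequence between the pseudogenes was not searched. Of the 26 genes not wholly inside it, 6 were at 0, all of them tRNA genes. The pseudogenes themselves held 8 reads in all libraries, 7 of them on Gm28438 and 1 on Gm28661. How the authors treated reads that map to more than 1 place is not given in the sources used here, and its part in the values at 0 was not tested. mt-Nd3 and Gm28438 differed at 1 of 345 aligned bases (T3C, counted from 1 at the first base of mt-Nd3). Their opening bases, at chrM:9459-9491 on the plus strand and chr1:24613087-24613119 on the minus strand, are shown with that base in capitals, since they carry the one letter that separates them.
mt-Nd3: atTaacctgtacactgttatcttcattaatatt
Gm28438: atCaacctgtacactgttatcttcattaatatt

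Whether doxorubicin changed the share of mitochondrial reads was asked first over the members together. The mt- share of all reads was 0.114, 0.0839, 0.0667 and 0.118% in PBS replicates 1 to 4, a mean of 0.0958% ± 0.0247 (SD, n = 4). It was 0.116, 0.0703, 0.104, 0.0892 and 0.181% in DOX replicates 1 to 5, a mean of 0.112% ± 0.0419 (SD, n = 5). The ranges overlapped, and the difference of 0.0161 percentage points was below either SD. It rested on DOX replicate 5, the deepest library, with an exact 95% interval of 0.173 to 0.188%. Without it the difference was -0.00102 points. The nuclear rRNA gene held a mean of 7.40% of the reads in PBS and 16.8% in DOX, and with its reads left out of the total the difference was 0.0310 points.

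The balance of the strands was described by the log2 ratio of reads counted on light-strand genes to reads counted on heavy-strand genes. It was 1.56, 1.79, 1.21 and 1.35 in PBS (mean 1.48 ± 0.25, SD, n = 4) and 1.81, 0.99, 2.02, 1.40 and 1.84 in DOX (mean 1.61 ± 0.42, SD, n = 5). Light-strand reads exceeded heavy-strand reads in 9 of 9 libraries, and the lowest and the highest ratio were both in DOX. This excess rested on mt-Nd6. The other 8 light-strand genes held 347 reads, against 1757 on heavy-strand genes. Their summed normalized read count was 7.57 to 45.4 in PBS and 23.2 to 70.2 in DOX. That of the heavy-strand genes was 113 to 198 in PBS and 121 to 260 in DOX. The group means of the log2 ratio differed by 0.13, below either SD. This difference lay between 0.03 and 0.29 with each library left out in turn. Over the tRNA genes alone, with 1 read added to each strand, it turned to -0.66, where the heavy strand held 23 reads in all.

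**Figure D3:**
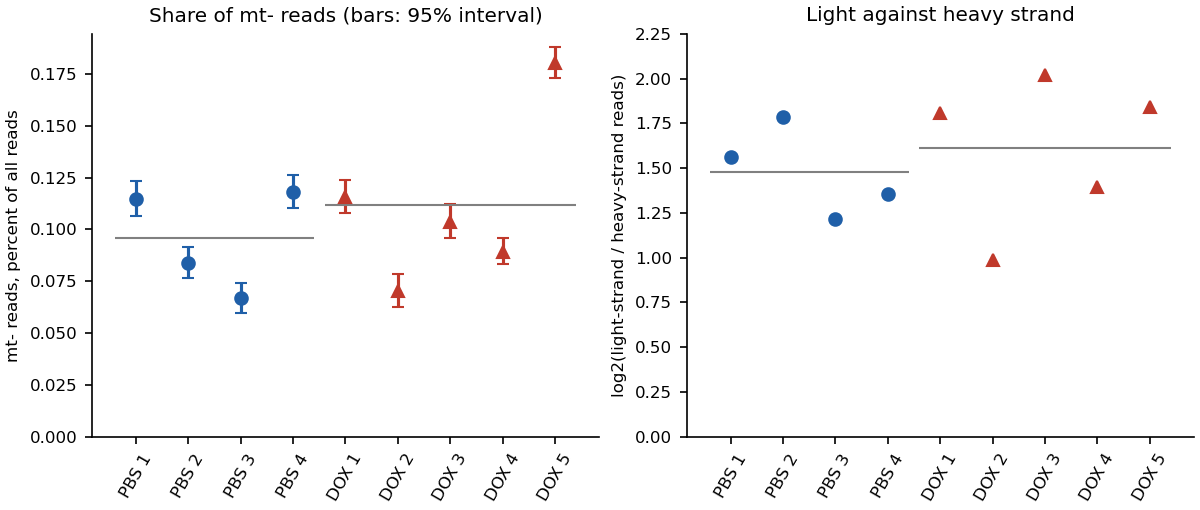
Left, mt- reads as a percent of all reads in each library with exact 95% binomial intervals, and right, the log2 ratio of light-strand to heavy-strand mt- reads (4 PBS as blue circles, 5 DOX as red triangles, grey lines at the group means). DOX replicate 5 lies highest on the left at 0.181%, and on the right the DOX libraries span 0.99 to 2.02 around the PBS range of 1.21 to 1.79.

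None of the 7 tested members passed the test between DOX and PBS. The test was limma on log2(normalized read count + 1), with a trend of variance on level, in which 0 of the 2604 genes (0%) had a Benjamini-Hochberg adjusted p under 0.05. At an unadjusted p under 0.05 there were 0 of the 7 members and 162 of the 2604 genes (6.22%). With edgeR, limma-voom and DESeq2 on the recovered reads, 0 of 6, 0 of 6 and 0 of 22 members passed, and 0 at an unadjusted p under 0.05 in each. With no filter on low values 3 of 17428 genes (0.0172%) passed, 0 of them members. In that limma fit 1 member, mt-Te, had an unadjusted p under 0.05 (0.0296), as had 459 of the 17428 genes. The groups did not overlap for 0 of the 7 members and for 69 of the 2604 genes (2.65%). DOX had the higher fitted mean in 5 of the 7 members and in 49.4% of all genes tested, with median log2 fold changes of 0.17 and -0.01. Without PBS replicate 4, 5 members were tested and 4 were fitted higher.

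Of the light-strand members, mt-Nd6 and mt-Te were tested, and both were highest in DOX replicate 5. The normalized read count of mt-Nd6 was 510.5, 344, 285 and 496 in PBS replicates 1 to 4 and 535, 368, 458, 404 and 859 in DOX replicates 1 to 5. 2 DOX libraries exceeded the highest PBS library, and the others lay within the PBS range. The log2 fold change was 0.33 ± 0.28 (SE), with a limma 95% interval of -0.25 to 0.92 and an adjusted p of 0.862. Without DOX replicate 5 it was 0.14, and without PBS replicate 3 it was 0.17. The coefficient of variation between libraries was 27.3% in PBS and 37.6% in DOX, whereas counting error alone gave 2.44 to 7.25%.

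mt-Te, the glutamic acid tRNA gene next to mt-Nd6, had the lowest p of the members. Its normalized read count was 14.0, 10.6, 2.52 and 0.81 in PBS and 17.6, 11.6, 15.3, 8.22 and 41.5 in DOX. In PBS replicate 4 the value stood for 1 read. 3 DOX libraries lay above the highest PBS library, and 2 lay within the PBS range. The log2 fold change was 1.58 ± 0.79 (SE), with a limma 95% interval of -0.09 to 3.25, an unadjusted p of 0.0628 and an adjusted p of 0.761. Without DOX replicate 5 it was 1.25, and without PBS replicate 4 it was 1.02. With 1 library left out in turn, the unadjusted p of mt-Te by limma was lowest without PBS replicate 1, at 0.0323. Without DOX replicate 5 that p was 0.177. Per 100 mt-Nd6 reads there were 0.163 to 3.07 mt-Te reads in PBS and 2.03 to 4.83 in DOX, so that this ratio also overlapped between the groups.

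The 2 rRNA genes, both needed for the mitochondrial ribosome, were the next most abundant members. mt-Rnr2, the 16S rRNA gene (chrM:1094-2675), had a normalized read count of 54.9, 56.0, 56.8 and 94.8 in PBS and 65.9, 67.7, 50.1, 101 and 132 in DOX. PBS replicate 4, in which granulocyte markers summed to 1186, stood above the other PBS libraries. The log2 fold change of mt-Rnr2 was 0.29 ± 0.35 (SE, adjusted p = 0.914 by limma), 0.11 without DOX replicate 5 and 0.48 without PBS replicate 4. mt-Rnr1, the 12S rRNA gene (chrM:70-1024), was at 35.0, 18.0, 20.2 and 47.8 in PBS and at 29.7, 48.4, 25.5, 17.2 and 26.1 in DOX. Its means, 30.2 ± 13.9 and 29.4 ± 11.6 (SD, n = 4 and 5), were close, with a log2 fold change of -0.01 ± 0.45 (SE, adjusted p = 0.997 by limma). mt-Rnr2 exceeded mt-Rnr1 in 9 of 9 libraries, by 1.40-fold to 5.87-fold in reads, and the widest ratios were in DOX replicates 4 and 5. Per kb of gene the 2 held 516 and 296 reads over all libraries.

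Among the heavy-strand protein genes mt-Cytb, the cytochrome b of complex III (chrM:14145-15288), was the highest. Its normalized read count was 36.0, 18.0, 34.1 and 13.8 in PBS and 32.5, 42.6, 10.2, 26.1 and 29.2 in DOX, and the log2 fold change was 0.12 ± 0.50 (SE, adjusted p = 0.985 by limma), with a sign that turned when values were scaled to equal totals. mt-Co1, the catalytic subunit of complex IV (chrM:5328-6872), was at 11.0, 5.28, 0 and 16.2 in PBS and at 25.1, 0, 5.11, 10.5 and 6.66 in DOX. Each group thus held 1 library at 0, and the log2 fold change was 0.17 ± 1.14 (SE, adjusted p = 0.985 by limma). mt-Nd5, a proton-pumping subunit of complex I (chrM:11742-13565), was at 15.98, 5.28, 5.05 and 12.2 in PBS and at 0, 1.94, 16.3, 0 and 26.1 in DOX. The DOX values lay below and above all PBS values, and the log2 fold change was -1.18 ± 1.16 (SE, adjusted p = 0.894 by limma). On the recovered reads it was -1.36 by limma-voom, but -0.08 by edgeR and -0.09 by DESeq2. Where mt-Nd5 was above 0, mt-Nd6 had at least 28 times as many reads.

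**Figure D4:**
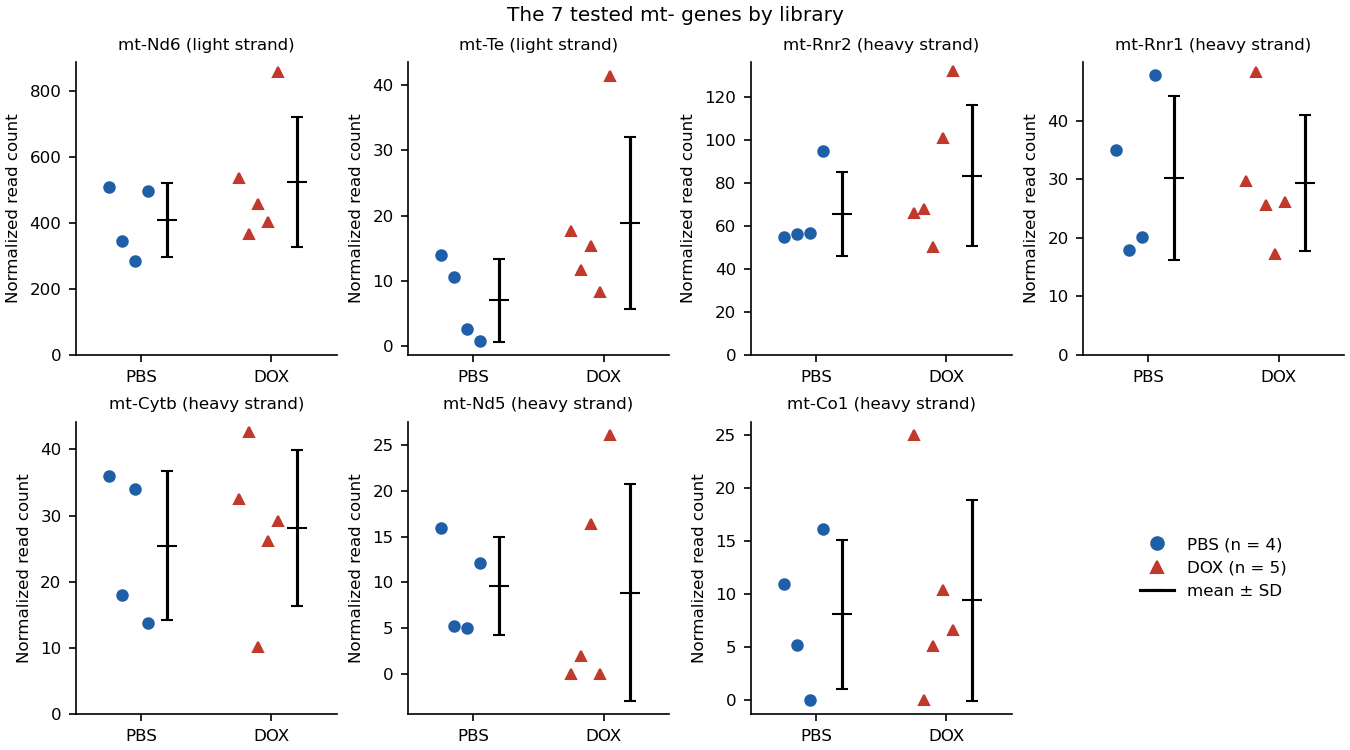
Normalized read count (y axis, linear) of the 7 tested mt- genes in each library, with PBS as blue circles (n = 4), DOX as red triangles (n = 5) and the mean ± SD beside each group. The groups overlap in all 7 panels, and DOX replicate 5 is the highest DOX library for mt-Nd6, mt-Te, mt-Rnr2 and mt-Nd5.

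The members below the limit included 3 complex I genes. mt-Nd1 (98 reads) had normalized read counts of 6.99, 7.39, 5.05 and 4.05 in PBS and 5.57, 23.2, 3.06, 3.73 and 25.1 in DOX. It was thus above the PBS range in DOX replicates 2 and 5 and below it in DOX replicates 3 and 4. mt-Nd4 (45 reads) was above 0 in all 9 libraries, at 7.99, 3.17, 5.05 and 1.62 in PBS and 2.78, 5.81, 3.06, 2.99 and 7.68 in DOX, within the PBS range throughout. mt-Nd2 (32 reads), with one of the longest runs of A shown above, was at 15.0, 0, 0 and 6.48 in PBS and at 0.93, 0, 4.09, 1.49 and 1.02 in DOX.

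Of the light-strand tRNA genes below the limit, mt-Tp had the most reads (106). Its normalized read count was 2.00, 22.2, 5.05 and 4.05 in PBS and 14.8, 9.68, 9.19, 8.22 and 16.9 in DOX. All 5 DOX libraries lay above 3 of the PBS libraries and below PBS replicate 2. mt-Tq (57 reads) was at 8.99, 10.6, 0 and 0 in PBS and at 7.42, 0, 3.06, 7.47 and 8.71 in DOX. mt-Tc (14 reads) was at 2.00, 2.11, 0 and 2.43 in PBS and at 1.86, 1.94, 1.02, 0 and 1.54 in DOX. For both, the ranges of the groups overlapped. The other light-strand tRNA genes, mt-Ts1, mt-Ta, mt-Ty and mt-Tn, had 6, 2, 2 and 1 reads.

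The summed normalized read count of the 8 light-strand tRNA genes was 29.0, 45.4, 7.57 and 8.91 in PBS and 42.7, 23.2, 30.6, 24.6 and 70.2 in DOX, with means of 22.7 ± 18.0 (SD, n = 4) and 38.3 ± 19.4 (SD, n = 5). The ranges overlapped. Reads of heavy-strand tRNA genes were scarce. They came from mt-Ts2 (8 reads), mt-Tt (5), mt-Tm (4), mt-Ti (3) and mt-Tr (3), with 1 read in PBS and 22 in DOX. DOX replicates 1, 2, 3 and 5 supplied these 22 reads, and no heavy-strand tRNA gene had reads in more than 2 libraries.

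The nuclear genes that work with the members did not pass the test either. Of 79 nuclear subunits of the respiratory chain and ATP synthase, 17 were tested, 8 fitted higher and 9 lower in DOX, none with an adjusted p under 0.05, with a median log2 fold change of -0.09 against -0.01 over all genes tested. Without PBS replicate 4, 11 of 14 were fitted higher. The 79 genes held 5607 reads, fewer than the 7212 of the 37 mt- genes.

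Complex I, in which mt-Nd6 sits, had 6 of 37 nuclear subunits tested, 3 fitted higher and 3 lower. Ndufb10, an accessory subunit, had normalized read counts of 11.99, 34.8, 20.2 and 25.1 in PBS and 68.7, 50.3, 42.9, 25.4 and 112 in DOX. 4 DOX libraries lay above all PBS libraries, with a log2 fold change of 1.27 ± 0.47 (SE), an unadjusted p of 0.0154 and an adjusted p of 0.736 by limma. Ndufa3 and Ndufv3, also accessory, had log2 fold changes of 0.69 ± 0.43 and -0.75 ± 0.91 (SE). Complex II had 1 of 4 genes tested, its membrane anchor Sdhc at -0.55 ± 0.44, and complex III 1 of 9, Uqcrq at 0.08 ± 0.70. Of complex IV 5 of 13 were tested, 2 higher and 3 lower, with Cox7b at 1.11 ± 0.98, Cox7a2l, a factor of supercomplex assembly, at -0.69 ± 0.98 and Cox6a1 at -0.17 ± 0.63. Of complex V 4 of 16 were tested, 2 higher and 2 lower, with Atp5d at 0.79 ± 0.61 and Atp5b, the catalytic beta subunit, at -0.95 ± 0.90, both of the F1 part, and Atp5k at 0.57 ± 0.69. Ndufv3, Cox7a2l and Atp5b were at 0 in DOX replicate 2, and without it their log2 fold changes were -0.08, -0.05 and -0.28. The sign of Uqcrq and of Cox6a1 turned with edgeR and DESeq2.

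**Figure D5:**
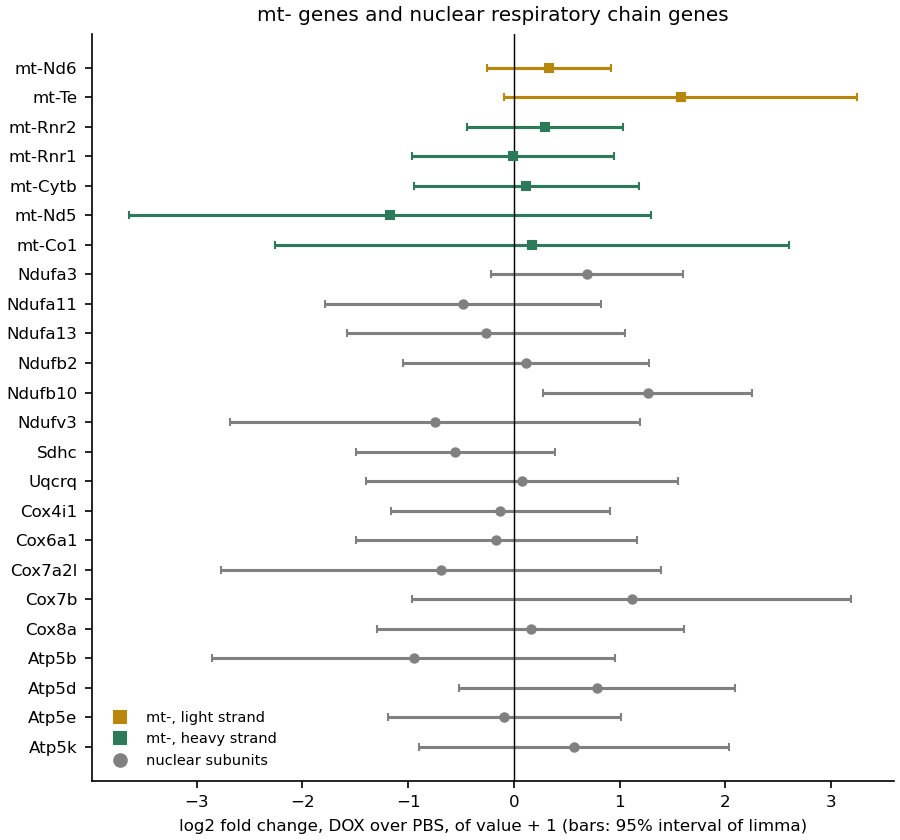
log2 fold change of DOX over PBS on the log2(normalized read count + 1) scale with the limma 95% interval (x axis) for the 7 tested mt- genes (squares, gold for the light and green for the heavy strand) and the 17 tested nuclear subunits (grey circles). All 7 mt- intervals include 0, and that of mt-Te runs from -0.09 to 3.25.

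Of 40 nuclear genes that copy, cut, stabilize or modify mitochondrial RNA or replicate its DNA, 6 were tested, 1 fitted higher and 5 lower, none with an adjusted p under 0.05. The median log2 fold change was -0.21, and without PBS replicate 4 all 6 were fitted lower. Twnk, the DNA helicase of the mitochondrial replisome, was at -0.59 ± 0.41 (SE) and at -0.21 without PBS replicate 4, with a mean normalized read count of 95.3 ± 61.9 in PBS (SD, n = 4), where PBS replicate 4 had 184, and of 56.5 ± 16.9 in DOX (SD, n = 5). Ptcd1, a regulator of mitochondrial RNA, was at -0.22 ± 0.20 (SE), with a mean normalized read count of 770 in PBS and 652 in DOX. Slirp, which with Lrpprc stabilizes mitochondrial messenger RNAs, was at -0.20 ± 0.18 (SE), with means of 1304 and 1130. These means exceeded those of mt-Nd6, 409 and 525. Exons of all 3 overlap exons of genes on the opposite strand, over 507 bases (Twnk with Mrpl43), 244 bases (Ptcd1 with Bud31) and up to 2914 bases (Slirp with Alkbh1 or Snw1). Without strand these reads cannot be told apart, and with the orientation reversed they would come from RNA of the opposite strand. Which genes the reads of these 3 came from was not tested. Of 20 genes of mitochondrial stress and biogenesis 5 were tested, 3 fitted higher and 2 lower, with log2 fold changes of 0.46 ± 0.28 for Ddit3, -0.46 ± 0.41 for Atf4 and 0.34 ± 0.40 for Atf5 (SE), transcription factors of the stress response. None had an adjusted p under 0.05.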

How the data were processed

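MARS-seq libraries of sorted lung fibroblasts (4 PBS, 5 DOX) were mapped by the authors to mm10 with STAR and counted per gene with HTSeq-count and a RefSeq annotation. The sources used here do not give tool versions, the strand setting, the treatment of reads with several positions or whether molecular tags were collapsed. The deposited signal is a normalized read count per gene symbol, in which each library's reads were divided by its size factor. Dividing by the smallest step of a library gave whole reads for 100% of its values (tolerance 1e-06). 119 repeated symbols per table were summed.

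Log2(value + 1) was compared by limma 3.58.1 in R 4.3.3 (variance trend on, two-sided) for genes reaching 10 in 4 or more libraries, with Benjamini-Hochberg adjustment at 0.05, no covariate and no block. The recovered reads were also tested with limma-voom, DESeq2 1.42.0 and edgeR 4.0.16. The fits were tested on simulated counts with known changes. Differences in shares and in the strand ratio were described without a test. The labels call the libraries biological replicates. As a check for repeated deposits of a library, reads were compared within groups, and with a chi-square per degree of freedom of at least 7.60 each library was counted once.

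Gene positions, strands and sequences are those of GENCODE M21 (mm10). mt- transcripts were aligned to all other GENCODE transcripts with BLAST 2.17.0, and intergenic sequence was not searched. The members and gene lists were chosen with earlier results of these data known. Per-library values are given for every mt- gene that passed the filter or had 10 or more reads in all, and of the nuclear mitochondrial lists the tested genes are counted and up to 3 of lowest p are named. Lists of marker genes are given as sums. Endothelial genes summed to 107 to 305 in PBS and 128 to 204 in DOX, and smooth muscle and pericyte genes to 140 to 211 and 99.3 to 217.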

Additional observations from a re-analysis of the deposited data

Results flagged for a closer look

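In 36 groups of values examined for a single library far from the rest (18 measures in 4 PBS and 5 DOX libraries), 3 were found, and chance alone marks about 1 group in 20. The normalized read count of mt-Rnr2 was 94.8 in PBS replicate 4, where the other PBS libraries lay between 54.9 and 56.8. mt-Te was at 41.5 in DOX replicate 5, where the other DOX libraries lay between 8.22 and 17.6. mt-Tp was at 22.2 in PBS replicate 2, where the other PBS libraries lay between 2.00 and 5.05. PBS replicate 4 is the library with high markers of granulocytes and epithelial cells, and DOX replicate 5 is the deepest. Their part in these values was not tested.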

How the results depend on the processing

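No member passed under any of the 19 alternatives, and mt-Nd6, mt-Te, mt-Rnr2 and mt-Nd5 kept their direction in every alternative that tested them (19, 19, 19 and 13). Over all genes, 3 passed with no filter on low values, none of them a member. Scaling to equal totals moved the median log2 fold change of all genes from -0.01 to -0.14 and gave -0.012 for mt-Cytb and -0.045 for Uqcrq. Without PBS replicate 4 and DOX replicate 2 together, mt-Rnr1 was at 0.05, mt-Cytb at -0.30 and Cox6a1 at 0.17. Uqcrq was at -0.12 by edgeR, -0.13 by DESeq2 and -0.31 by limma-voom, and Cox6a1 at 0.079 by edgeR and 0.082 by DESeq2. With each replicate left out in turn, mt-Rnr1 ranged from -0.21 to 0.24, mt-Co1 from -0.69 to 0.86, mt-Cytb from -0.13 to 0.43, Uqcrq from -0.19 to 0.48 and Cox6a1 from -0.59 to 0.16. The cause was not tested. The alternatives for the named nuclear genes were chosen after seeing the data, as was the strand ratio over tRNA genes alone, which needed 1 read added to each strand and gave a difference of -0.66. The mt- share differed by -0.00102 to 0.0265 points with each replicate left out, and the strand ratio by 0.03 to 0.29.

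Whether the replicate numbers pair the libraries could not be decided. Deviations of same-numbered libraries correlated at only 0.02 to 0.07, yet 3 of 4 PBS libraries correlated best with their own number. With the number as a block over replicates 1 to 4, which leaves out DOX replicate 5, 0 genes passed and 152 had an unadjusted p under 0.05, against 154 in the same libraries without the block. mt-Rnr1 was at 0.013 and Cox6a1 at 0.16 both with the block and without it in these libraries. With 1 library of each group per block these fold changes are equal by design, so they cannot decide on pairing. Low counts limit the heavy-strand tRNA genes, with 23 reads in all, and mt-Co1 and mt-Nd5, with libraries at 0.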
